A study of Mus musculus with 4 samples.

Results

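Laminins, nidogens and the heparan sulfate proteoglycans agrin and perlecan are secreted proteins of the basement membrane, and 9 of their genes were followed in single cells of mouse glomeruli. The genes were Lama4, Lama5, Lamb1, Lamb2, Lamc1, Nid1, Nid2, Agrn and Hspg2, taken by symbol from the 52636 genes of the deposited matrices, where each symbol had 1 row. There were 4 droplet libraries, 2 from young and 2 from aged untreated mice, whose glomeruli had been caught on magnetic beads and digested with enzymes. The labels say only young or aged and give no age in months, strain or sex. They do not tell whether libraries of a group came from separate animals, so p-values measure only the spread between these libraries.

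A laminin is a cross-shaped trimer of 1 alpha, 1 beta and 1 gamma chain, and laminin polymers on the cell surface are the base on which the rest of a basement membrane assembles. Nidogens bind the laminin gamma chain and type IV collagen and join both networks, while agrin and perlecan carry heparan sulfate. In the glomerulus the basement membrane lies between podocytes and endothelium and both cell types build it. As it matures, the beta chain in it changes from laminin beta 1 (Lamb1) to laminin beta 2 (Lamb2), loss of which causes congenital nephrotic syndrome. Laminin alpha 5 (Lama5) is its main alpha chain, whereas laminin alpha 4 (Lama4) is a chain of endothelial basement membranes and laminin beta 1 remains in the mesangial matrix.

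Lamb1 carried the largest age difference of the family in endothelium, and Lamb2 encodes the other beta chain among the 9 genes. The sequences before the transcription starts of both are therefore shown. They come from RefSeq promoter windows on GRCm38.p6, which matched 6 of the 9 genes, and they end before the gene start of GENCODE M21, so no transcribed base is shown. Both read 5′ to 3′ on the plus strand, and capitals mark the GC box.
Lamb1, chr12:31265043-31265233: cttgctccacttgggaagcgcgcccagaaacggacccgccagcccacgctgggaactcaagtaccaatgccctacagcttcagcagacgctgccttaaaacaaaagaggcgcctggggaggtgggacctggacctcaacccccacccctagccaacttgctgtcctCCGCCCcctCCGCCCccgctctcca
Lamb2, chr9:108479612-108479735: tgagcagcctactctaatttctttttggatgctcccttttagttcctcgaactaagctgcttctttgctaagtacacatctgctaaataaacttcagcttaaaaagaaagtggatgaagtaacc
The GC box was searched as GGGCGG on both strands, so that CCGCCC is the same motif on the other strand, and matches were allowed to overlap. The whole window of 300 bases around the start held 2 GC boxes and 18 CG dinucleotides for Lamb1, and 0 GC boxes and 4 CG dinucleotides for Lamb2. Of all 32851 windows of that length, 35.7% held a GC box, and their median was 7 CG dinucleotides. Lamb1 lies on chromosome 12 at 31265234 to 31329644 and Lamb2 on chromosome 9 at 108479736 to 108490530, both on the plus strand of GRCm38. Neither overlaps another annotated gene. Nid2, on chromosome 14 at 19751265 to 19811787 on the plus strand, overlaps Rtraf on the opposite strand.

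The libraries held 5532 and 9649 (young) and 10621 and 7521 (aged) cell barcodes with 18457791 to 42046542 unique molecular identifiers (UMIs, each standing for 1 captured transcript). Filters kept 5035 to 9187 cells per library. Of the distinct barcodes, 116 of 33206 (0.349%) occurred in more than 1 library. Young library 2 stood apart. Its cells had a median of 1258 UMIs, against 2715 to 3730 in the others, and 61.0% of them could not be named, mostly because they lay in clusters with markers of several classes, against 1.76% to 4.05%. Among these, 2603 cells lay in a cluster whose strongest markers were those of podocytes. Another 1179 lay in a cluster strongest in mesangial markers. The podocytes and mesangial cells named in young library 2 leave these cells out. In the order young 1, young 2, aged 1, aged 2, the named cells were 1765, 596, 997 and 665 podocytes, 2413, 1442, 6026 and 4307 endothelial cells, 303, 194, 698 and 537 mesangial cells, and 30, 58, 50 and 62 parietal epithelial cells, which line the capsule around the glomerulus. Names rest on markers. The slit diaphragm gene Nphs1 was at 1118 UMIs in every 1000000 in podocytes of young library 1, and Itga8, a mesangial integrin, at 1562 to 2094 in mesangial cells. UMIs were summed per class and library, and 4-value series below keep that order.

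Levels per class are given in UPM, the number of a gene's UMIs in every 1000000 UMIs of the class, and are described without a test, because the classes come from clusters of these same cells. Podocytes held Lamb2, Agrn, Lama5 and Lamc1, little Nid2 (5.79 to 9.10 UPM) and almost none of the other 4 genes. Over the 4 libraries, Lama4 in podocytes was at 0.0 to 0.303, Lamb1 at 0.0 to 1.52, Hspg2 at 0.515 to 1.59 and Nid1 at 0.881 to 2.19 UPM. B, T and NK cells, which should lack these genes, showed 0.0 to 4.96 for Lamb1, 0.0 for Lama4, Nid2, Agrn and Hspg2, 0.0 to 5.06 for Lama5 and Nid1, 0.0 to 9.92 for Lamb2 and 11.8 to 25.3 for Lamc1. A level of 0.0 there allows up to 13.6 to 18.7 UPM, the upper bounds of exact 95% Poisson intervals, which cover counting error only. For Lamc1, the gamma chain of most laminins, the mean was 26.6 in B cells and 6.8 in T and NK cells, beside 22.5 to 33.7 in podocytes.

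**Figure D1:**
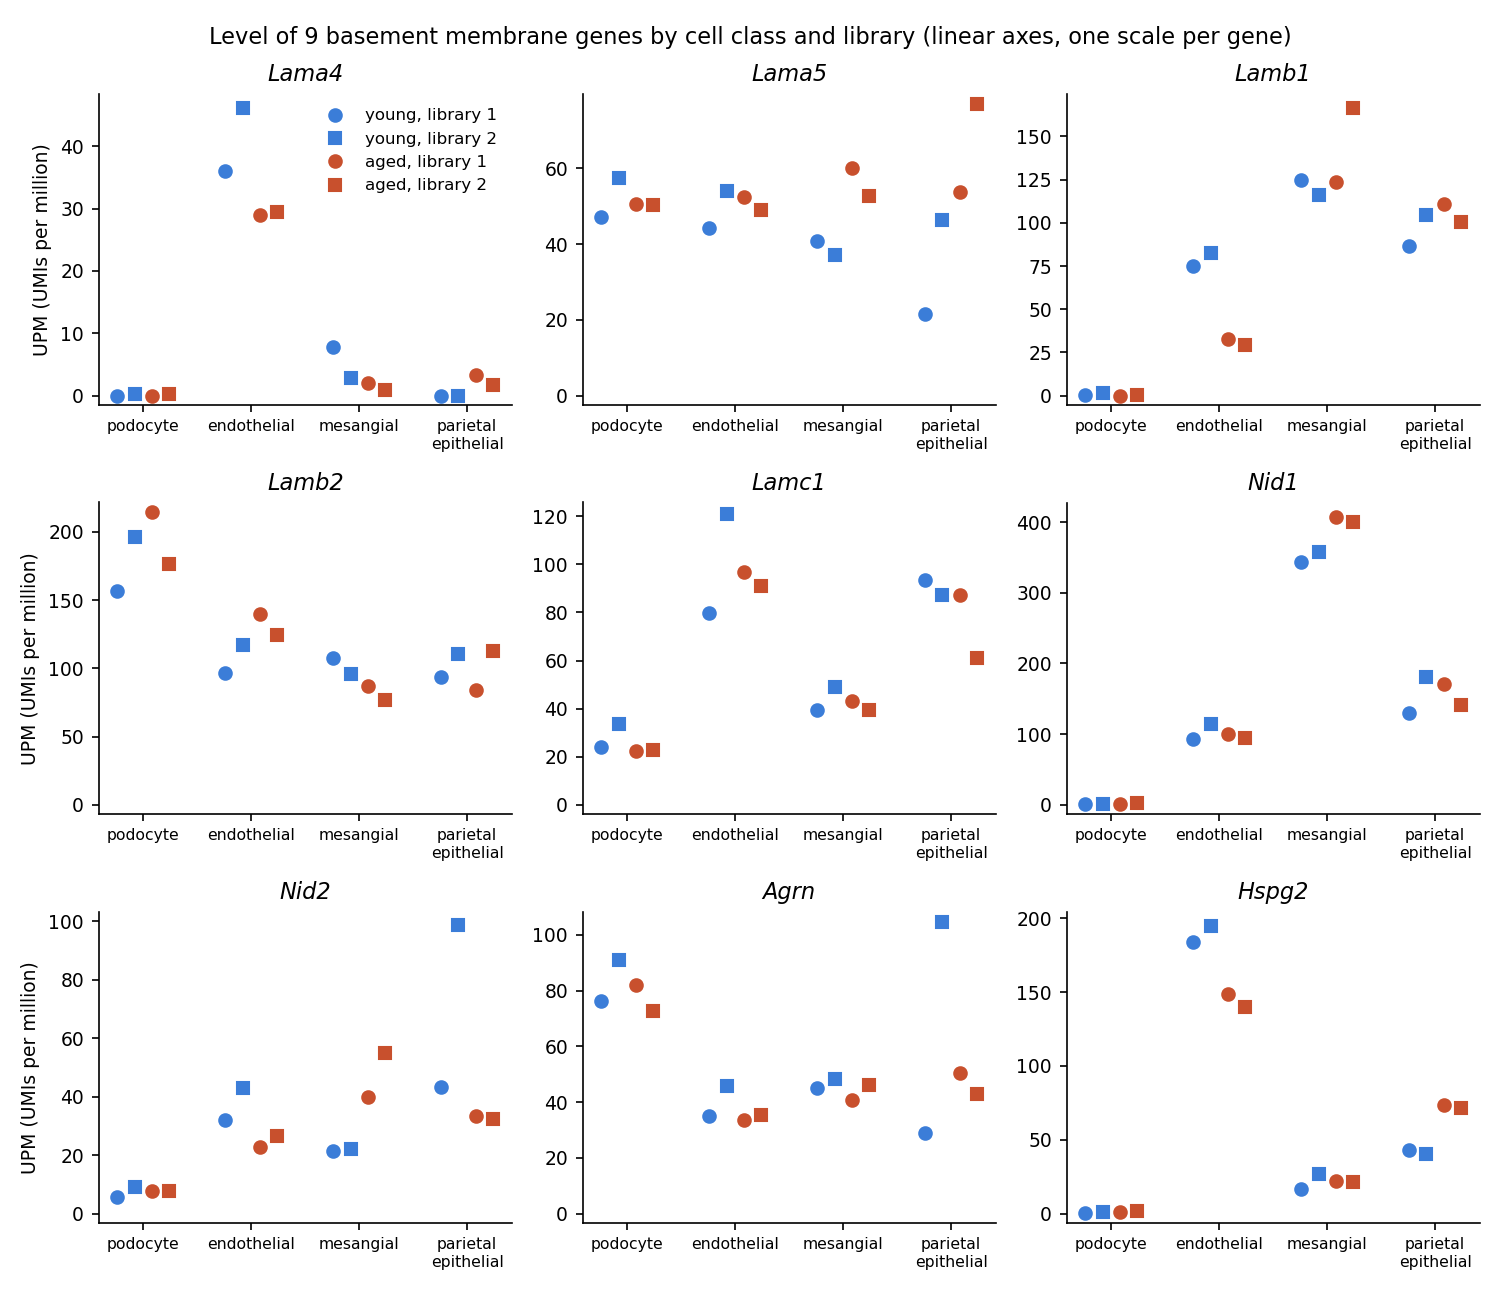
Levels in UPM (y axis, linear, a scale per gene) of the 9 genes in 4 glomerular cell classes (x axis), 1 point per library. Endothelial Lamb1 is at 75.2 and 82.4 in young but 33.0 and 29.6 in aged libraries, and mesangial Nid2 at 21.5 and 22.2 in young but 40.1 and 54.8 in aged ones.

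The class with the highest level differed from gene to gene. Lama4 UMIs were mostly endothelial: endothelial cells gave 90.9% to 97.4% of them in named cells, a share that also depends on how many endothelial cells there were. The endothelial mean was 35.1 ± 8.0 UPM (SD over n = 4 libraries), with 3.4 ± 3.1 in mesangial cells and 1.3 ± 1.6 in parietal epithelial cells. The smaller smooth muscle and renin class was at 27.2 ± 10, and its range of 14.7 to 37.9 overlapped the endothelial 28.9 to 46.2. Hspg2, which encodes perlecan, was also mainly endothelial, at 167 ± 27 UPM. It was at 58.5 ± 29 in the smooth muscle and renin class, 57.3 ± 18 in parietal epithelial and 21.8 ± 4.2 in mesangial cells. Nid1 was highest in mesangial cells, at 377 ± 32, followed by parietal epithelial cells at 156 ± 24 and endothelium at 101 ± 9.8. Lamb1 was highest in mesangial cells at 133 ± 23, with parietal epithelial cells at 101 ± 10, all 4 of whose libraries were below the 4 mesangial values, and endothelium lower at 55.1 ± 28. Loop and distal tubule cells, with enough cells in 2 libraries only, were at 105 and 117 for Lamb1. This overlapped the mesangial range of 116 to 167. Agrn, the main heparan sulfate proteoglycan of the glomerular basement membrane, had its highest mean in podocytes at 80.5 ± 8.0. Parietal epithelial cells were at 56.7 ± 33 for Agrn, and their range of 28.8 to 105 overlapped the podocyte 72.7 to 91.0. Lama5 differed little between classes, with means of 47.7 to 51.5 in the 4 glomerular classes and overlapping ranges.

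The 9 genes were compared between aged and young in each class with edgeR's quasi-likelihood test on the UMI sums, fitted over all genes that passed a filter on low counts, and a gene was called at a Benjamini-Hochberg adjusted p under 0.05. In endothelium 1 of 9 tested genes was called, Lamb1, lower in aged. Of all 13178 genes tested there, 6.37% were called, and 2.25% were called lower in aged. In mesangial cells 1 of 8 tested genes was called, Nid2, higher in aged, where 7.03% of 10866 genes were called and 4.51% were called higher in aged. In podocytes 0 of 5 tested genes were called, against a background of 5.68% of 10919 genes, and 0 had an unadjusted p under 0.05. In parietal epithelial cells 0 of 8 tested genes were called, against 3.19% of 4352 genes, and 1 had an unadjusted p under 0.05. DESeq2 called 0 of the 9 genes in podocytes, where it called 242 of 12680 genes. It also called 0 of them in parietal epithelial cells, where it gave an adjusted p to only 771 genes and called 58. So few genes at such shares say little. The shares called among the 9 genes thus rest on 1 gene each in 2 classes, and the median log2 fold change of the tested genes was -0.09 in endothelium, 0.24 in mesangial cells, 0.03 in podocytes and -0.0038 in parietal epithelial cells, beside -0.0051, -0.01, 0.0044 and -0.0034 for all genes.

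**Figure D2:**
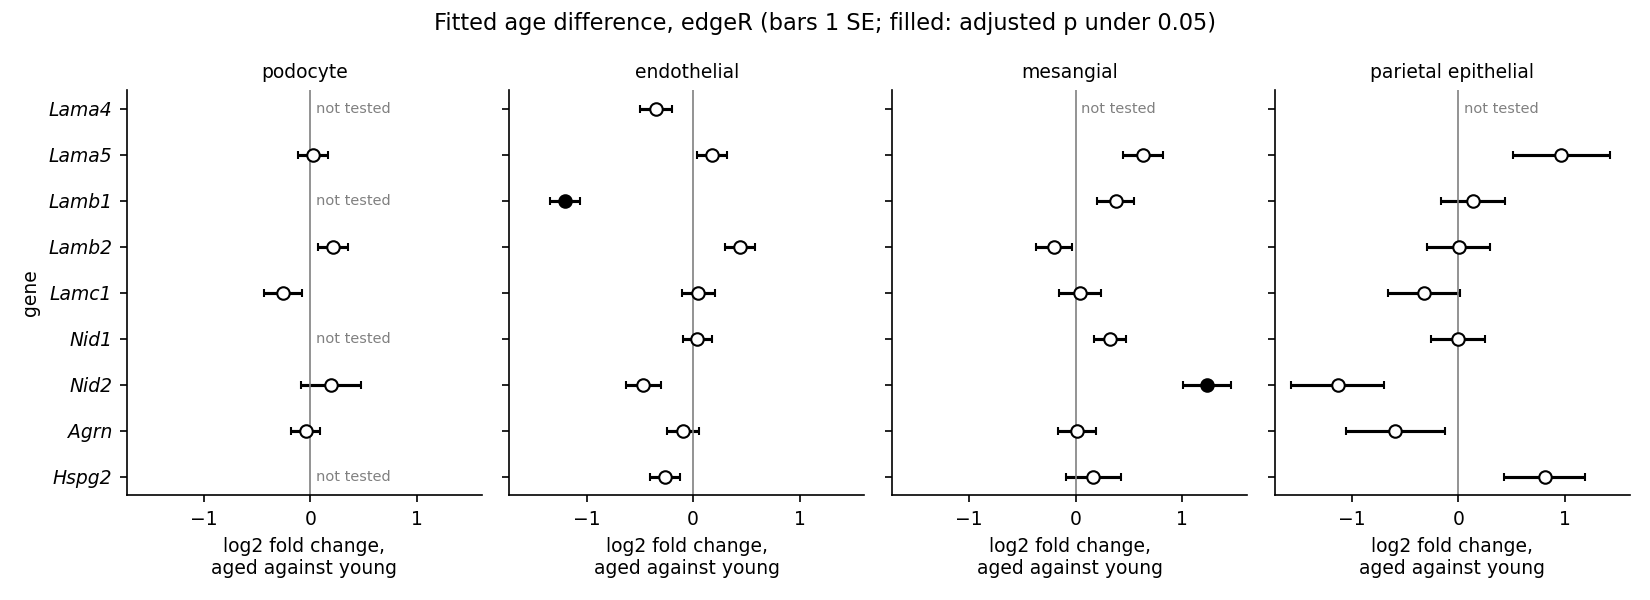
Log2 fold change of aged against young (x axis; bars are 1 SE) for the 9 genes (y axis) in each class, from edgeR fits to 2 young and 2 aged libraries. Filled points passed an adjusted p of 0.05: Lamb1 in endothelium at -1.20 and Nid2 in mesangial cells at 1.23.

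Endothelial Lamb1 was at 75.2, 82.4, 33.0 and 29.6 UPM. Both young libraries were high and both aged ones low, without overlap, and the young mean was 2.52 times the aged mean. The log2 fold change was -1.20 (SE 0.14) with an adjusted p of 1.1e-05 in edgeR, and Lamb1 ranked 35 by p among the 13178 genes. After each cell was thinned to 1000 UMIs, Lamb1 was found in 7.51%, 7.94%, 2.999% and 2.50% of endothelial cells. Without thinning the shares were 16.3%, 17.8%, 7.67% and 9.57%, at median depths of 2316, 2580, 2340 and 3229 UMIs per cell, beside 0.0% to 1.05% of B, T and NK cells at median depths of 1326 to 1873. Thinning left out 19 to 195 endothelial cells per library. Endothelial sums carried 0.349% to 1.02% of the level that the 8 mesangial markers had in mesangial cells, more in the aged than in the young libraries, and none of the 8 was at 0. Single markers did not all follow this sum. Pdgfrb was at 1.10, 2.23, 0.805 and 0.368 UPM and Itga8 at 1.57, 7.20, 2.97 and 2.94, and the others are not given by gene here. All 6 fibroblast markers together were at 1.10 to 2.73 UPM.

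Lamb2 in endothelium was at 96.3, 117, 139.7 and 124 UPM. The 2 aged values exceeded the 2 young ones, but the log2 fold change of 0.44 (SE 0.14) had an adjusted p of 0.068 in edgeR and was not called. Its share of beta chain UMIs was 56.1%, 58.7%, 80.9% and 80.8%, with 95% Wilson intervals of 53.2% to 59.1%, 55.2% to 62.0%, 79.4% to 82.3% and 79.2% to 82.3%, which cover counting error only. The aged mean was 23.4 percentage points above the young mean (80.8 ± 0.062 against 57.4 ± 1.8, SD, n = 2 each). With 2 libraries against 2, an exact two-sided permutation test cannot go below p = 0.333, which was reached here. Where TMM scaling moved endothelial aged libraries by 0.13 on the log2 scale against young ones, such a share within a library does not depend on it.

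**Figure D3:**
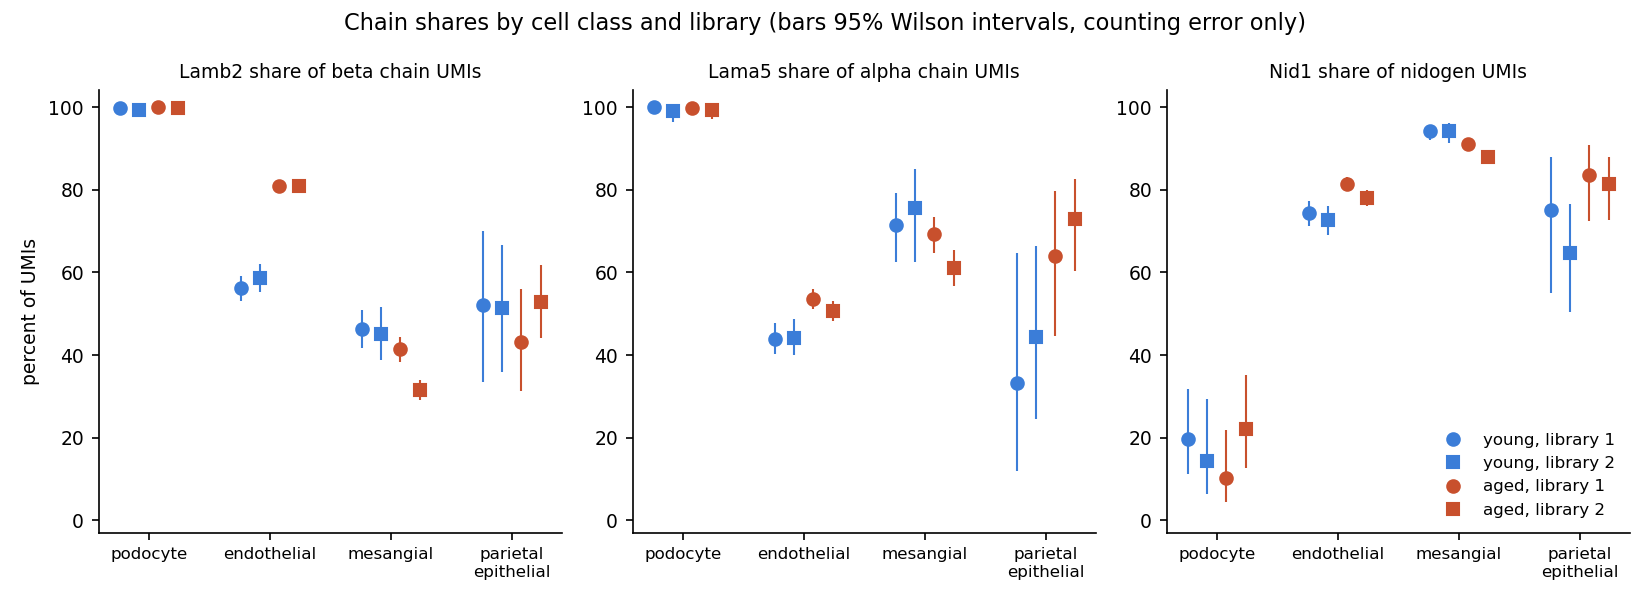
Share of UMIs (y axis, percent; bars are 95% Wilson intervals) from Lamb2 among Lamb1 and Lamb2, from Lama5 among 5 laminin alpha genes, and from Nid1 among Nid1 and Nid2, by cell class (x axis), 1 point per library. In endothelium the Lamb2 share is 56.1% and 58.7% in young but 80.9% and 80.8% in aged libraries.

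The beta chain share went the other way in mesangial cells. There Lamb2 made up 46.3%, 45.2%, 41.4% and 31.5% of beta chain UMIs, lower in both aged libraries, by 9.32 percentage points on average, and most in aged library 2 (exact permutation p = 0.333, two-sided). In podocytes the share was 99.7%, 99.2%, 100.0% and 99.7%. In parietal epithelial cells it was 52.0%, 51.4%, 43.1% and 52.9%, on 25 to 119 UMIs per library, and the groups overlapped.

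The endothelial fall of Lamb1 was looked at within the 5 endothelial clusters, because 1 of them, led by the adhesion gene Sele and the cytokine gene Il6, held 32.4% and 28.0% of young and 47.1% and 38.3% of aged endothelial cells. In that cluster Lamb1 was at 93.2, 128, 41.9 and 38.6 UPM. In cluster 2, led by genes that include Klf2, Id1 and the glomerular endothelial gene Ehd3, it was at 87.9, 88.1, 35.2 and 32.3. In cluster 3, led by Esm1 and Igfbp3, it was at 56.4, 68.7, 15.03 and 10.6. Each of these 3 clusters had both young libraries above both aged ones. The log2 fold changes were -1.31 (SE 0.17), -1.30 (SE 0.16) and -2.10 (SE 0.37), with adjusted p of 0.00014, 3.8e-06 and 0.0071 in edgeR, where 3.84%, 3.73% and 0.834% of all genes tested were called.

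In cluster 5, which is led by the proliferation genes Cenpf, Ube2c and Mki67, Lamb1 was at 56.1, 41.5, 27.3 and 24.0, and its log2 fold change of -0.94 (SE 0.33) was not called (edgeR adjusted p = 0.21, 1.15% of genes called). Cluster 4, led by Tspan8, Thbs2 and Fbln2, was at 1.47, 1.74, 0.0 and 3.40 for Lamb1, too low to be tested. Of the genes tested in cluster 4, 3.87% were called. Lamb2 in that cluster was at 128, 135, 149 and 153 UPM, so its beta chain UMIs were nearly all Lamb2 in both groups. Lamb2 rose in the Sele-led cluster, from 81.7 and 106 to 137 and 129 UPM, with a log2 fold change of 0.64 (SE 0.16) and an adjusted p of 0.029 in edgeR, and it was not called in the other 4.

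**Figure D4:**
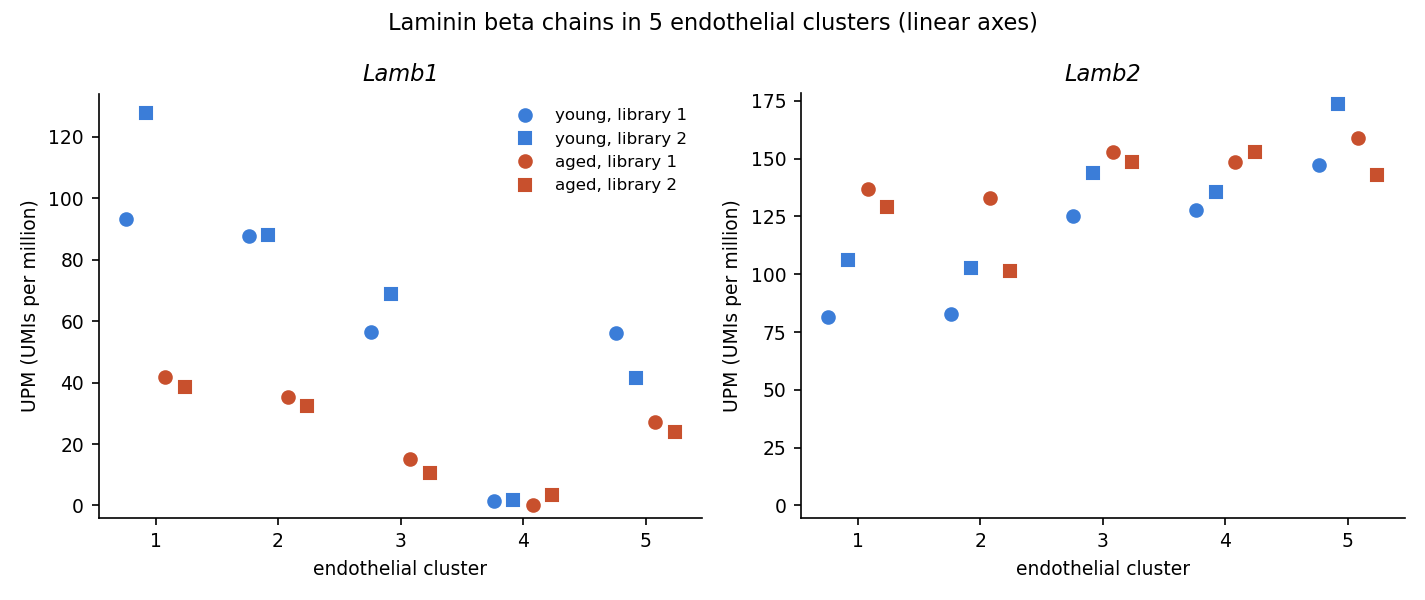
Lamb1 and Lamb2 levels in UPM (y axes, linear) in 5 endothelial clusters (x axis), 1 point per library. Lamb1 in clusters 1, 2, 3 and 5 is higher in both young libraries, while cluster 4 lies between 0.0 and 3.40 in all 4 libraries.

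The other laminin chains of the endothelium moved less. Lama4 was at 36.0, 46.2, 28.9 and 29.5 UPM, lower in both aged libraries, but its log2 fold change of -0.35 (SE 0.15) was not called (edgeR adjusted p = 0.20). Lama5 was at 44.3, 54.1, 52.5 and 49.0 with overlapping groups and a log2 fold change of 0.18 (SE 0.14). The Lama5 share of the UMIs of 5 laminin alpha genes was 43.9%, 44.2%, 53.5% and 50.7%, higher in both aged libraries by 8.02 percentage points (exact permutation p = 0.333). Lamc1, at 79.6, 121, 96.9 and 90.9, showed aged values between the young ones and a log2 fold change of 0.05 (SE 0.15).

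Among the linkers and proteoglycans of the endothelium, Nid2 was at 32.2, 43.2, 22.9 and 26.5 UPM, lower in both aged libraries, with a log2 fold change of -0.47 (SE 0.16) and an adjusted p of 0.098 in edgeR, which is not a call. Nid1 was at 93.3, 115, 100.6 and 94.3 with a log2 fold change of 0.04 (SE 0.14). Hspg2 was at 184, 195, 149 and 139.8, without overlap, but its log2 fold change of -0.26 (SE 0.14) was not called (edgeR adjusted p = 0.32). Agrn was at 35.2, 45.9, 33.5 and 35.4, with a log2 fold change of -0.09 (SE 0.15). In all, 5 of the 9 genes had both aged libraries on 1 side of both young ones in UPM. Of all genes tested in endothelium, 49.1% were in that state. Here and in the classes below, such shares over all genes were counted after TMM scaling, unlike the UPM values of the 9 genes. A gene with a narrow gap or overlap can change its state between these scales.

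Mesangial Nid2, the second nidogen, was at 21.5, 22.2, 40.1 and 54.8 UPM. Both aged libraries were high and the aged mean was 2.17 times the young mean. The log2 fold change was 1.23 (SE 0.22) with an adjusted p of 0.0044 in edgeR. The call rests on both young libraries: the log2 fold change was 1.21 without young library 1 and 1.25 without young library 2, with adjusted p of 0.23 and 0.19, in fits that called 30 and 16 of all genes. Thinned to 1000 UMIs per cell, Nid2 was found in 2.01%, 3.93%, 3.47% and 4.30% of mesangial cells, where the groups overlapped, and unthinned in 12.5%, 11.3%, 20.2% and 33.1%, with median depths of 4303, 3540, 4526 and 7091 UMIs.

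Other markers moved with the mesangial groups. The summed level of the 7 parietal epithelial markers in mesangial cells was 189 and 232 UPM in young against 422 and 532 in aged libraries, with 4 of 7 at 0 in each. The 8 mesangial markers themselves summed to 12110 and 12189 in young against 10781 and 9979 in aged libraries, and Pdgfrb, the mesangial growth factor receptor, was at 658 and 681 against 373 and 377. Genes of the fibroblast list did not move together. Dcn was at 3.66 and 0.927 against 30.5 and 46.8, but Pdgfra went the other way, at 210 and 223 against 109 and 153. Col1a1 was at 0.0 to 0.694 and Lum at 0.0 to 0.173 in all. The sum of the 8 endothelial markers was at 8.78% to 9.63% of its endothelial level, but single markers moved. Flt1 was at 66.4 and 48.2 against 107 and 109, and Cdh5 at 34.0 and 20.4 against 41.9 and 38.0. The others are not given by gene here. Whether these shifts take part in the Nid2 difference was not tested.

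Nid1 in mesangial cells was at 343, 357, 407 and 400.4 UPM, higher in both aged libraries, with a log2 fold change of 0.32 (SE 0.15) that was not called (edgeR adjusted p = 0.23). The share of Nid1 among nidogen UMIs was 94.1%, 94.1%, 91.0% and 88.0%, lower in both aged libraries by 4.63 percentage points (exact permutation p = 0.333). Lama5 was at 40.8, 37.1, 60.0 and 52.7, also without overlap, and its log2 fold change of 0.63 (SE 0.19) stood at an adjusted p of 0.058 in edgeR. Its share of the UMIs of 5 laminin alpha genes was 71.6%, 75.5%, 69.2% and 61.2%, lower in both aged libraries (exact permutation p = 0.333). Lamb1 was at 125, 116, 124 and 167, with overlapping groups and aged library 2 highest, and a log2 fold change of 0.37 (SE 0.17). Lamb2 was at 108, 95.5, 87.4 and 76.5, lower in both aged libraries, with a log2 fold change of -0.21 (SE 0.17) that was not called. Lamc1, Agrn and Hspg2 overlapped between groups, with log2 fold changes of 0.04 (SE 0.19), 0.01 (SE 0.18) and 0.17 (SE 0.26). Lama4 did not pass the filter at 7.85, 2.78, 1.99 and 0.867. Of the 8 tested genes 4 were separate between groups, beside 52.9% of all genes.

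Podocytes, the epithelial cells that wrap the capillaries, showed no called difference in the 5 tested genes. Lamb2 was at 157, 197, 215 and 177 UPM, a spread that overlapped between groups, with a log2 fold change of 0.21 (SE 0.14). Lama5 was at 47.1, 57.6, 50.7 and 50.5, with 0.03 (SE 0.14). Agrn was at 76.3, 91.0, 82.1 and 72.7, with -0.04 (SE 0.14). Lamc1 was at 24.2, 33.7, 22.5 and 22.7, the 1 tested gene whose groups did not overlap, where 45.9% of all genes did not, and its log2 fold change was -0.26 (SE 0.18). Nid2 was at 5.79, 9.10, 7.75 and 7.75, with 0.20 (SE 0.28). Fitted within each of the 2 podocyte clusters, 0 of the 5 genes were called, at backgrounds of 6.67% and 0.812%.

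Parietal epithelial cells were few, so their sums held 138816 to 558215 UMIs. Nid2 was at 43.2, 98.7, 33.6 and 32.2 UPM, lower in both aged libraries but with young library 2 far above young library 1, and its log2 fold change of -1.13 (SE 0.44) was not called (edgeR adjusted p = 0.20). Lama5 was at 21.6, 46.5, 53.7 and 77.0 with 0.97 (SE 0.46), and Hspg2 at 43.2, 40.7, 73.8 and 71.7 with 0.81 (SE 0.38). Both had higher values in both aged libraries and neither was called. These 3 genes were separate between groups, beside 49.4% of all genes. The Lama5 share of the UMIs of 5 laminin alpha genes was 33.3%, 44.4%, 64.0% and 72.9%. It was higher in both aged libraries, on 9 to 59 UMIs per library (exact permutation p = 0.333). Agrn, at 28.8, 105, 50.3 and 43.0, spread most between the young libraries. Lamb1, Lamb2, Lamc1 and Nid1 overlapped, with log2 fold changes of 0.14 (SE 0.30), 0.00090 (SE 0.30), -0.32 (SE 0.34) and -0.0085 (SE 0.25). The 8 smooth muscle and renin markers in these sums reached 7.36% and 8.38% of their own class in young against 15.2% and 21.05% in aged libraries, with 4 of 8 at 0 in each library, and their part was not tested.

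Whether an age difference itself differed between classes was tested with an interaction term, with the library as a block, for the 6 pairs of classes. Of 52 tests of the 9 genes, 4 were called. The age difference of Lamb1 in endothelium was lower than in mesangial cells by a log2 difference of -1.62 (SE 0.18, edgeR adjusted p = 2.2e-05). For that pair 2.68% of 12888 genes were called. Nid2 also differed between endothelium and mesangial cells, by -1.72 (SE 0.23, edgeR adjusted p = 0.00011), since it was lower in aged endothelium and higher in aged mesangial cells. The Lamb1 difference between endothelium and parietal epithelial cells was -1.51 (SE 0.35, edgeR adjusted p = 0.0022), where 1.25% of 11801 genes were called, and that of Nid2 between mesangial and parietal epithelial cells was 2.28 (SE 0.53, edgeR adjusted p = 0.012), where 1.46% of 9220 genes were called. Lamb2 between endothelium and mesangial cells, at 0.61 (SE 0.17), was not called (edgeR adjusted p = 0.058). Pairs of podocytes with endothelial, mesangial and parietal epithelial cells gave 0 calls among the 9 genes at backgrounds of 5.47%, 3.07% and 2.01%. Lama4, Lamb1, Nid1 and Hspg2 had not passed the filter in podocytes, with 2, 12, 32 and 23 podocyte UMIs in all. Where they were tested in these pairs, they passed through the other class. With so few podocyte UMIs, the lack of a call says little for them.

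The wider basement membrane was read from 7 lists, in CPM, which is UPM after TMM scaling. The list counts stand beside these calls over all tested genes. Of 13178 genes in endothelium, 542 were called higher in aged and 297 lower. The counts were 490 and 274 of 10866 in mesangial cells, and 413 and 207 of 10919 in podocytes. Parietal epithelial cells had 75 and 64 of 4352. In endothelium the type IV and related collagens had 1 of 6 tested genes higher and 1 lower. Col18a1, which gives rise to endostatin, rose from 103 and 94.2 to 192 and 185 CPM, and Col15a1, a related collagen, fell from 131 and 138 to 81.9 and 89.1. The type IV collagen gene Col4a1 was at 355, 385, 319 and 324 and was not called. Among other basement membrane proteins 2 of 10 were lower and 0 higher: Npnt (nephronectin, an integrin ligand) fell by 1.24 on the log2 scale and Hmcn1 (hemicentin) by 1.82. The laminin receptor subunit Itga6 was the 1 of 17 receptors called, and fell from 141 and 157 to 88.3 and 95.9 CPM.

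Enzymes that modify or crosslink matrix had 3 of 12 tested genes higher in aged endothelium and 0 lower. P4ha2, a collagen prolyl hydroxylase, had a log2 fold change of 0.82 and Plod2, a collagen lysyl hydroxylase, 0.61. The lysyl oxidase relative Loxl4 was at 0.156, 0.0, 2.72 and 2.37 CPM, so it rose from near 0. Of 18 tested heparan sulfate genes 2 were higher and 2 lower. Ndst1, a sulfotransferase, was at 19.4, 18.8, 30.8 and 27.9, and Hpse, heparanase, at 1.09, 0.688, 3.30 and 2.88, whereas Xylt2, which starts the chains, fell by 0.84 and Hs3st1, a sulfotransferase, by 2.26 on the log2 scale. Of 2 tested other laminin chains 0 were called. The list medians were -0.31 for collagens, -0.11 for other proteins, 0.03 for receptors, 0.50 for crosslinking, -0.13 for heparan sulfate genes and -0.52 for other laminins, beside -0.0051 for all genes. In the dissociation response list, 2 of 15 genes were higher, Dusp1 and Ier3 (median 0.39), and their part was not tested.

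In mesangial cells the only other laminin chain that passed the filter, Lama2, the alpha chain of muscle-type laminin, rose from 6.60 and 8.94 to 25.8 and 32.3 CPM, with a log2 fold change of 1.95 (SE 0.30). Collagens had 1 of 5 higher and 1 lower. Col18a1 was at 7.11, 15.2, 70.9 and 35.5, and Col4a3, a podocyte collagen of the mature glomerular basement membrane, fell from 21.3 and 20.6 to 11.3 and 6.57, where podocyte markers stood at 1.35%, 1.54%, 1.25% and 1.04% of their podocyte level. Of 9 other basement membrane proteins 2 were lower, Fras1 by 2.28 and Npnt by 1.69 on the log2 scale, and 0 higher. Of 17 receptors 1 was lower, the syndecan Sdc1, which fell by 0.98. P4ha2 was the 1 of 11 crosslinking genes that rose, by 1.03, and 2 of 13 heparan sulfate genes rose, the sulfatase Sulf1 from 5.08 and 0.894 to 17.2 and 38.5, and the sulfotransferase Hs6st2 from 0.508 and 0.0 to 4.26 and 14.4 CPM. Medians were -0.01, 0.11, 0.05, 0.38 and 0.13 in the order of these 5 lists, beside -0.01 for all genes. Of 15 dissociation response genes 4 were lower (Egr1, Btg2, Atf3 and Jun), with a median of -0.06.

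Podocytes had 0 of 7 collagens, 0 of 7 other basement membrane proteins and 0 other laminin chains called. Col4a3 was at 1167, 1362, 1210 and 1287 CPM, overlapping between groups. The dystroglycan partner Sgcb was the 1 of 14 receptors that rose, by 0.61, P4ha2 and Plod2 were the 2 of 13 crosslinking genes that rose, by 0.72 and 0.59, and Sulf2 was the 1 of 15 heparan sulfate genes that rose, by 1.01. Medians were -0.02, 0.18, 0.08, 0.18 and 0.03, beside 0.0044 for all genes. Of 15 dissociation response genes 4 were higher (Atf3, Hspa1a, Hspa1b and Ier3) and 1 lower (Dusp1), with a median of 0.15.

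In parietal epithelial cells 2 of 7 collagens were lower, Col4a4 from 675 and 364 to 173 and 241 CPM and Col4a1 from 1169 and 1355 to 813 and 757, with a list median of -0.71 beside -0.0034 for all genes. Of 7 other basement membrane proteins 2 were lower, Npnt and the laminin-like netrin Ntn4, which fell by 1.03 and 1.01 on the log2 scale. Of 13 receptors 1 was higher, the hyaluronan receptor Cd44, at 0.0, 6.39, 48.9 and 59.7, and of 6 heparan sulfate genes 1 was higher, Hs3st1, at 32.9, 12.8, 135 and 88.5, while 0 of 7 crosslinking genes were called. Medians of these last 4 lists were -0.59, -0.06, -0.18 and 0.02. Of 15 dissociation response genes 7 were lower (Jun, Egr1, Fosb, Zfp36, Fos, Ier2 and Junb), with a median of -0.86, and their part was not tested.

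The genes whose level ran most like that of each of the 9 were taken over the 16 class and library sums, with Pearson's r of log2(CPM + 1) among 8592 genes. Such an r mostly follows the difference between classes, and the 4 classes of a library share its depth. Nid1 ran most like Col4a2 (0.994), Pdgfa (0.991) and Col4a1 (0.986), and Lamb1 like Mpdz (0.990), Col4a1 (0.988) and Ccdc102a (0.988). Lamc1 ran like Crybg3 (0.970), the laminin receptor gene Itga6 (0.963) and Rell1 (0.961). Lama4 ran like Mb21d1, Chst8 and Cd38 (0.9730 to 0.9746), and Hspg2 like Ddah2, Fam110a and Cd24a (0.981 to 0.985). Agrn ran like Crebl2, Zfp106 and Churc1 (0.950 to 0.974), Lamb2 like Abr, Nde1 and Csnk1a1 (0.933 to 0.965), Lama5 like Ghdc, Mecr and Mob4 (0.910 to 0.938) and Nid2 like Mgst1 (0.924) and Trim2 (0.920).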

How the data were processed

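The authors deposited raw counts of UMIs per gene and barcode, 1 matrix per library, with no normalization. Glomeruli were loaded on a 10x Chromium 3′ kit, per the labels' protocols, which name Cell Ranger 3.1.0 and GRCm38, whereas the submitters' processing notes name Cell Ranger 6.0.1. It is not known which of both made the matrices. No barcode had under 500 UMIs.

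Barcodes with at least 500 genes and at most 20% mitochondrial UMIs were kept. Scrublet's automatic threshold marked 154 of 29876 barcodes (0.515%), so the highest scores were removed at 0.8% per 1000 barcodes instead (1876). Cells were clustered in scanpy 1.11.5 (2000 variable genes, 30 components, 15 neighbours) with leidenalg 0.10.2 at resolution 1, without integration. This gave 21 clusters, of which 17 were named from marker lists. A name needed a median marker level of 0.35 of the best cluster and 3 detected markers. Clusters and cells with another class at 0.25, and clusters led by another class's genes, stayed unnamed. These naming rules, and the cut on doublets, were set after the clusters had been seen.

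UMI sums per class and library (at least 20 cells) were tested with edgeR 4.0.16 in R 4.3.3 (TMM, default filter, age as the only term), with Benjamini-Hochberg adjustment over all tested genes. Interactions had the library as a block. SE was derived from the fold change and its F statistic. The tests were tested on simulated data. The members, gene lists and alternatives were chosen with earlier results of these data known. Named from the lists were called genes, at most 6 per list and class by smallest p (all 7 called dissociation genes in parietal epithelial cells are named, after their values were seen). For each of the 9 genes the 3 genes with the highest r are named, at a mean of at least 10 CPM, without predicted genes; 1 of those for Nid2 is not reported here. Alternatives were RLE scaling, DESeq2 1.42.0, no filter, each library left out, a replicate block, other cell selections and clusterings, and 1 fit over 4 classes. Fits within single clusters were added after levels had been seen. Of the gene IDs, 52403 (99.6%) were in GENCODE M21 for GRCm38.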

Additional observations from a re-analysis of the deposited data

Results flagged for a closer look

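The age difference of a gene differed between 2 classes in 4 cases, by the interaction test of edgeR, with the library as a block. For Lamb1 the log2 fold change in endothelium minus that in mesangial cells was -1.62, and minus that in parietal epithelial cells -1.51. Nid2 differed by -1.72 between endothelium and mesangial cells. It differed by 2.28 between mesangial and parietal epithelial cells, where the young values of the parietal epithelial class rest on 30 and 58 cells. Both differences between endothelium and mesangial cells were called in 5 of 5 alternatives (RLE scaling and each library left out), with adjusted p of up to 0.030 for Lamb1 and 0.048 for Nid2. The Lamb1 difference from parietal epithelial cells was called in 2 of 5, with adjusted p of up to 0.073. The Nid2 difference from parietal epithelial cells was called in 3 of 5, with values of 1.55 to 2.70 and adjusted p of up to 0.63.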

How the results depend on the processing

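Lamb1 in endothelium was lower in aged libraries in 19 of 19 alternatives and was called in 17. The exceptions were cluster 5 and the fit without a filter on low counts, where Lamb1 was at -1.17 with an adjusted p of 0.095 and edgeR called 0 of 23434 genes, 2290 of them with an unadjusted p under 0.05. Nid2 in mesangial cells was higher in 14 of 14 and called in 12, with adjusted p from 2.4e-08 to 0.23. Lama5 in mesangial cells was called in 6 of 14. The count of called genes among the 9 in endothelium (1) became 0 without the filter, 3 with a replicate block (Lamb1, Lamb2 and Nid2), 2 within cluster 1 and 0 within clusters 4 and 5. The mesangial count (1) became 2 at Leiden resolution 2, 2 with clustering without the 9 genes and the lists, 2 with mixed cells kept, 3 without the filter, 3 with 1 fit over the 4 classes and 2 with a replicate block. It was 0 to 2 when 1 library was left out. The count of called interactions (4) was 2 to 6. The replicate numbers of the titles are not said to pair libraries, and deviations of same-numbered libraries correlated at -0.024 to 0.085. With the replicate block 891, 1577, 1191 and 0 genes were called in podocytes, endothelium, mesangial and parietal epithelial cells, against 620, 839, 764 and 139 without it.

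Some uncalled values changed sign, and none was called where its sign differed from the reported one. In podocytes Nid2 was at -0.13 and Agrn at 0.027 at resolution 2, Lama5 at -0.037 in cluster 1 and Agrn at 0.061 in cluster 2. In endothelium Nid1 was at -0.028, -0.082 and -0.11 in clusters 1, 2 and 3. Lamc1 was at -0.0018 without the Sele-led cluster, -0.43 in cluster 4 and -0.35 in cluster 5. Lamb2 was at -0.057 in cluster 5, and Lama5 at -0.014 and -0.17 in clusters 3 and 4. In cluster 3 Nid2 was at 0.37, and Hspg2 was at 0.54, 0.0066 and 0.19 in clusters 3, 4 and 5. In mesangial cells Hspg2 was at -0.17 with mixed cells and Agrn at -0.0011 with doublets. In parietal epithelial cells Nid1 was at 0.11 in DESeq2, 0.19 without a filter, 0.0043 with doublets, 0.21 at resolution 2, 0.10 with clustering without the 9 genes, 0.075 with mixed cells and 0.14 with 1 fit. Lamb2 there was at -0.018 with the replicate block, -0.059 at resolution 2 and -0.18 with mixed cells. With 1 library left out, podocyte Nid2 ranged from -0.14 to 0.44, Lama5 from -0.097 to 0.12 and Agrn from -0.14 to 0.040. Endothelial Nid1 ranged from -0.051 to 0.14, Lamc1 from -0.18 to 0.31 and Agrn from -0.23 to 0.043. Mesangial Lamc1 ranged from -0.13 to 0.19, Hspg2 from -0.19 to 0.49 and Agrn from -0.038 to 0.077. Parietal epithelial Nid1 ranged from -0.13 to 0.28, Lamb2 from -0.28 to 0.18 and Agrn from -1.09 to 0.69. Of the shares, the parietal epithelial Lamb2 difference was 0.0061 as a mean over cells and -8.57 to 1.27 points with 1 library left out. The podocyte Lama5 difference was 1.00 as a mean over cells, 0.35 with doublets and -0.56 to 0.48 with 1 library left out, and that of podocyte Nid1 -6.76 to 5.04. All endothelial share differences kept their direction in 6 of 6 alternatives. The cause of these shifts was not tested. Where 1 library of a group was left out, the remaining one was assumed to vary like the other group.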

Other observations

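Cells outside the 4 glomerular classes also held these genes. The smooth muscle and renin class, with 36 to 72 cells per library, had the highest mean Lamb2 level of any named class, at 365 ± 124 UPM (SD, n = 4), with a range of 242 to 528. Its Lama5 level of 71.8 ± 14 was the highest mean too, and its Lama4 level of 27.2 ± 10 came second to that of endothelium. Lamb1 was at 15.8 ± 15 and Nid2 at 3.6 ± 4.7 there, on 12 and 3 UMIs in all. These sums were not tested for age.

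Macrophages, which had enough cells in 2 libraries only, were at 0.2 to 3.7 UPM on average for all 9 genes. The share of all Lamb1 UMIs in named cells that came from mesangial cells was 32.2% and 25.0% in young against 47.5% and 62.3% in aged libraries. The corresponding shares of Nid2 were 13.7% and 9.6% against 31.4% and 37.8%. Mesangial cells gave 11.2%, 11.3%, 15.01% and 16.4% of all UMIs of named cells in the order young 1, young 2, aged 1, aged 2.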
